A study of Mus musculus with 4 samples.

Results

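The cytochrome P450 genes were examined in Paneth cells, the antimicrobial secretory cells of the crypt base, taken from mice that had acquired gut microbes and from mice that had none. Genes were chosen by name alone, as those whose array symbol was Cyp followed by a digit, with Cyp51 left out. The array held 95 probe sets of 72 such genes. Each gene was represented by the probe set with the highest mean signal over the 4 arrays and was kept where that mean exceeded 113.9, the median mean signal on the array, which left 34 genes of the 12114 genes kept on the whole array. Cyp2d22 and Cyp7b1 lay just inside this limit with means of 116.8 and 117.0, and Cyp2j13 and Cyp1b1 just outside it with means of 112.9 and 106.7. Another 4 probe sets were assigned to more than 1 Cyp gene each and were kept apart.

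All animals were male NMRI mice, an outbred stock, 8 weeks old. Conventionalized mice had been germ-free and then carried the gut flora of a conventionally raised mouse for 10 days, and germ-free mice were kept without microbes. Each group was a single pool of laser-captured cells from 3 mice, and 2 amplified aliquots of 10 ng of RNA from each pool were hybridized to Affymetrix mouse arrays. The 2 arrays of a group were therefore repeat amplifications of 1 pool, and the p-values measure only the error of amplification and hybridization, not the spread between mice.

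Values are the deposited signal intensities, and differences are on the scale of log2(signal + 32), conventionalized minus germ-free, with the standard error (SE) of limma. The 2 arrays of a pool correlated at 0.779 for the conventionalized pool and 0.869 for the germ-free pool over all probe sets tested. Conventionalized array 2 stood apart from the other arrays, at 0.754 to 0.779, while conventionalized array 1 correlated at 0.89 with germ-free array 2. The conventionalized arrays went through fluidics station 2 and the germ-free arrays through station 1, and the effects of station and microbes cannot be told apart. In captured tissue, fewer cells of a type and less RNA per cell cannot be told apart either. Signals of different probe sets are on different scales, so their levels were not ranked against each other, and ratios of genes within an array are read only for how they differ between the pools.

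Cytochrome P450 enzymes are haem proteins that insert an oxygen atom into their substrates, with electrons passed on by a reductase or by cytochrome b5. Families 1, 2 and 3 act mainly on drugs, plant compounds, fatty acids and steroids, family 4 hydroxylates the far end of fatty acids and eicosanoids, and other families make or clear bile acids, steroid hormones and vitamins. In the small intestine they form part of the first barrier to swallowed chemicals, and many are induced through receptors that sense such compounds, among them the aryl hydrocarbon (Ah) receptor and the pregnane X receptor.

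Most of the P450 genes with a strong signal were lower in the conventionalized pool, but no single gene passed the test at its chosen probe set. Over the 34 genes the median log2 difference was -0.36, and 22 genes were below 0, whereas the median over all 12114 genes was 0.00. At an adjusted p under 0.05 limma called 0 of the 34 genes lower and 0 higher, beside 0.248% and 0.107% of all genes. At an unadjusted p under 0.05 it gave 5 genes lower (14.7%) and 0 higher, against 3.91% and 2.02% of all genes. The 5 were Cyp1a1, Cyp2d26, Cyp2j6, Cyp4b1 and Cyp4f13.

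Both conventionalized arrays lay below both germ-free arrays for 14 of the 34 genes (41.2%), a pattern seen in 16.1% of all genes. The opposite pattern held for 4 genes (11.8%), namely Cyp20a1, Cyp21a1, Cyp2d22 and Cyp4a31, against 15.9% of all genes. Genes of stronger signal made up most of the 14. Among the 22 P450 genes whose probe set was in the brightest 25% of the array (mean above 257.6), 13 had both conventionalized arrays below both germ-free arrays (59.1%, beside 18.1% of the 7284 genes there), and Cyp20a1 alone had both above (4.55%, beside 16.1%). Their median difference was -0.57, with 16 of 22 below 0, and that of all genes of such signal was -0.01. The other 12 P450 genes had a median of 0.30, with 6 below 0.

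Of the 34 genes, 6 passed the limit through the mean of 1 pool only, which by itself favours a difference: Cyp11a1, Cyp2d22 and Cyp4a31 through the conventionalized pool and Cyp2c39, Cyp4f39 and Cyp7b1 through the germ-free pool. Among the 28 genes with both pools above the limit, the median was -0.42 with 19 below 0. Of these, 13 were lower without overlap (46.4%, beside 15% of the 10486 genes treated alike) and 2 higher (7.14%, beside 14.4%). With both pool means in the brightest 25%, 12 of 20 were lower (60%, beside 16.7% of 6351 genes) and 1 higher (5%, beside 15%).

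**Figure D1:**
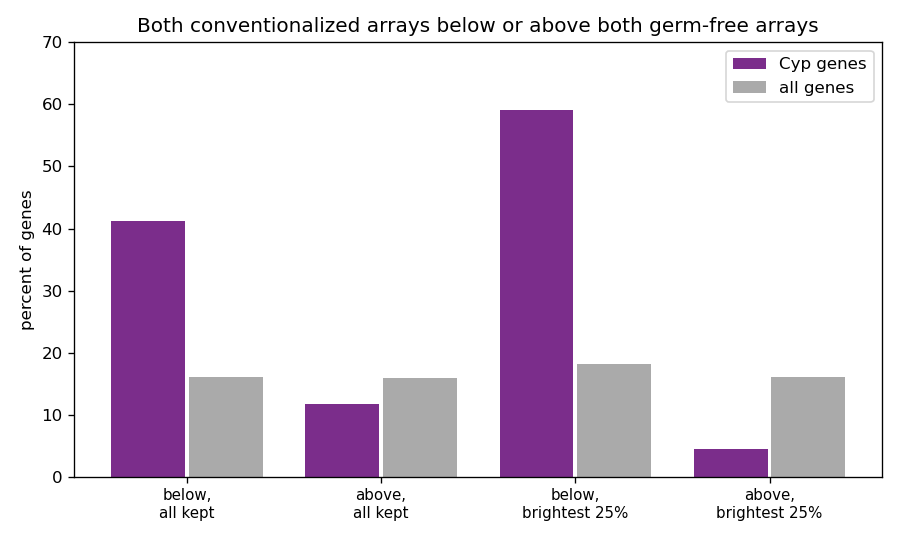
Percent of genes (vertical axis) for which both conventionalized arrays lay below or above both germ-free arrays, for P450 genes (purple) and all genes (grey), over the genes kept and over the brightest 25% of probe sets. The purple bar stands well over the grey one for genes lower in the conventionalized pool (41.2% beside 16.1%, and 59.1% beside 18.1%) and below it for genes that were higher.

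The median varied in size with single arrays and stayed below 0. Without conventionalized array 2, the one that stood apart, the median of the 34 genes was -0.46 with 25 below 0. Without conventionalized array 1 it was -0.11 with 18 below 0, and without germ-free array 1 it was -0.17 with 19 below 0. For the 22 genes of stronger signal the median stayed between -0.65 and -0.44 whichever array was left out. Centring each array on its median moved the median of all genes to -0.10 and that of the P450 genes to -0.46, and 16 P450 genes were then lower and 3 higher without overlap, beside 16.9% and 11.5% of all genes. Quantile normalization gave medians of -0.03 and -0.40, with 13 P450 genes lower and 3 higher without overlap, beside 18.5% and 17.3% of all genes. Without germ-free array 2 the median was -0.50, and 0 P450 genes had an unadjusted p under 0.05.

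**Figure D2:**
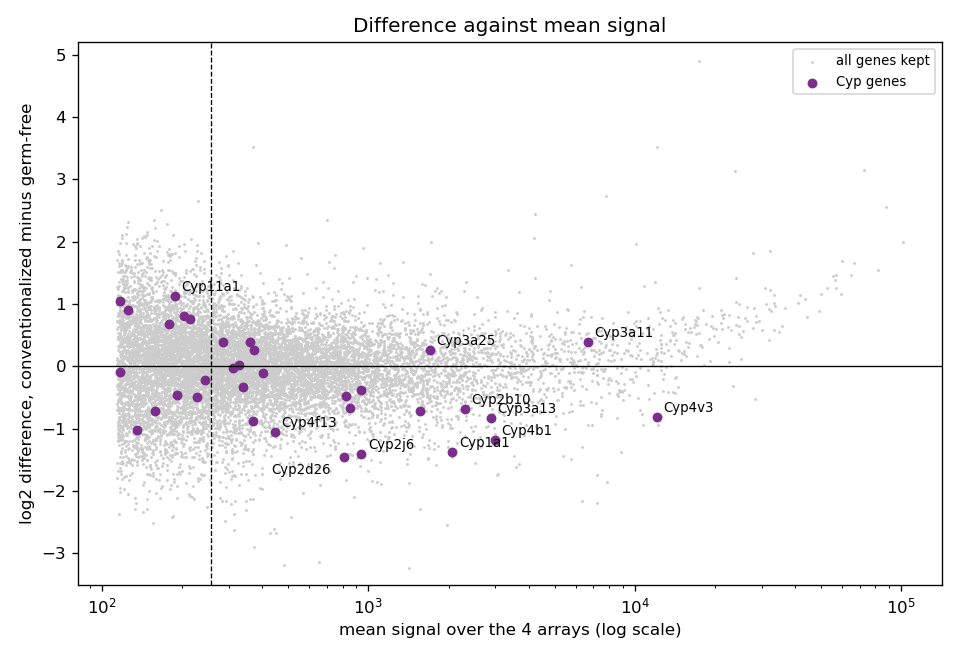
Log2 difference, conventionalized minus germ-free (vertical axis), against mean signal over the 4 arrays on a log scale (horizontal axis) for all 12114 genes (grey) and the 34 P450 genes (purple); the dashed line marks the start of the brightest 25%. To the right of that line 16 of 22 P450 genes lie below 0, among them Cyp1a1, Cyp2d26, Cyp2j6 and Cyp4b1, while Cyp3a11 and Cyp3a25 lie above it.

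Cyp1a1, which oxidizes polycyclic aromatic compounds and is the classical target of the Ah receptor, was lower on both conventionalized arrays. Its signal was 959.7 and 1275.4 on the conventionalized arrays, against 2194.1 and 3832.5 on the germ-free arrays. The groups did not overlap, and the highest conventionalized signal was well under the lowest germ-free one. The difference was -1.37 ± 0.42 (SE), 2.58-fold lower, with an adjusted p of 0.164 in limma, and it ran from -1.76 to -0.97 when single arrays were left out. The promoter of Cyp1a1 is shown because the Ah receptor binds a short core, GCGTG, in the genes it controls. In the RefSeq annotation of GRCm38.p6 the 250 bases before its start lie at chr9:57697363-57697612 on the plus strand. Capitals mark, in order, AGATAA (the GATA motif), the GCGTG core and TATAAA:
Cyp1a1: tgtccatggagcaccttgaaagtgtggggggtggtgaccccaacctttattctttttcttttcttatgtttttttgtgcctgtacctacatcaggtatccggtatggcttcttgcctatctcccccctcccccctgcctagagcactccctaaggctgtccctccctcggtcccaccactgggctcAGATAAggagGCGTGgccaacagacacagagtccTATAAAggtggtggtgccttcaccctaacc
Counted back from the start, the GCGTG core stood at bases -54 to -50. This is a match in letters, and whether the Ah receptor binds there was not tested. The letters alone are common: GCGTG, read on both strands, was in 28.2% of the 32851 promoter windows of this length, and in those of 9 of the 28 kept P450 genes that had a window.

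The Ah receptor gene itself, Ahr, had signals of 483.3 and 107.5 on the conventionalized arrays, against 579.4 and 687.4 on the germ-free arrays. At this probe set, the brightest, all germ-free signals were above all conventionalized ones. The difference was -1.31 ± 0.49 with an adjusted p of 0.486 in limma. It shrank to -0.36 without conventionalized array 2 and was -2.25 without conventionalized array 1. With the mean of the Ahr probe sets above the filter it was only -0.37. Of the other genes known as Ah receptor targets, 3 of 5 on the array passed the filter. Limma called 0 of the 3, beside 0.248% of all genes lower and 0.107% higher. Nqo1, a quinone reductase, had 120.9 and 110.0 on the conventionalized arrays and 317.0 and 254.5 on the germ-free arrays, a difference of -1.10. Gsta2, a glutathione transferase that passed the filter only through the germ-free arrays, had a difference of -0.83, which was -0.22 without conventionalized array 1. Tiparp, which restrains the receptor, had a difference of 0.22 with overlap. Ahrr, the receptor's repressor, was under the filter with signals of 133.6 and 221.7 on the conventionalized arrays and 8.6 and 63.9 on the germ-free arrays. Of the other members of family 1, also under the filter, Cyp1a2 had 73.5 and 166.9 on the conventionalized arrays and 18.5 and 15.7 on the germ-free arrays, opposite in direction to Cyp1a1. Cyp1b1 had 34.3 and 186.8 on the conventionalized arrays and 173.4 and 32.4 on the germ-free arrays, which overlapped. A Cyp1b1 probe set of nearly the same mean, 104.4, was higher without overlap. It had 183.2 and 91.7 on the conventionalized arrays, against 69.4 and 73.2 on the germ-free arrays. A dimmer one, with a mean of 90.9, overlapped.

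Family 2 was mixed. Of its 17 kept genes, Cyp2d26, Cyp2j6, Cyp2b10, Cyp2c65 and Cyp2s1 were lower without overlap, beside 16.1% of all genes. Cyp2d22 alone was higher without overlap, beside 15.9%. Cyp2d26, of a subfamily known for drug oxidation, had signals of 335.9 and 494.2 on the conventionalized arrays, against 922.9 and 1491.5 on the germ-free arrays. The lower germ-free signal was thus above either conventionalized one, and the difference was -1.45 ± 0.44, with an adjusted p of 0.139. Cyp2j6, of a subfamily that makes epoxides of polyunsaturated fatty acids, had 338.2 and 688.5 on the conventionalized arrays and 1065.2 and 1664.8 on the germ-free arrays. Its difference was -1.40 ± 0.43, with an adjusted p of 0.160. A dimmer probe set for Cyp2j6, which passed the filter only through the germ-free arrays, had 45.4 and 9.8 on the conventionalized arrays and 243.0 and 227.5 on the germ-free arrays.

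Cyp2b10, a drug-metabolizing enzyme induced through the constitutive androstane receptor, had 1622.9 and 1905.8 on the conventionalized arrays, against 2990.4 and 2673.3 on the germ-free arrays. Both pools were tight here and did not overlap, the difference being -0.68 ± 0.43, with an adjusted p of 0.999. Of its other probe sets, one gave -0.67 without overlap and the dimmer one -0.58 with overlap. Both probe sets without overlap are of a type that can match several genes, and the dimmer one is not. The remaining Cyp2b genes, Cyp2b9 (-0.02) and Cyp2b19 (0.69), had overlapping arrays.

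Cyp2c65, an arachidonate-oxidizing enzyme of the mouse intestine, was the Cyp2c gene with the clearest separation. It had 689.5 and 611.0 on the conventionalized arrays, against 901.3 and 1224.5 on the germ-free arrays, a difference of -0.67 ± 0.43. Its only probe set is of a type that can match several genes. The other 7 kept Cyp2c genes overlapped between the pools, with differences between -1.01 (Cyp2c39) and 0.39 (Cyp2c70), so that the subfamily of 8 had a median of -0.22. The Cyp2c genes that had a promoter window all lie on chromosome 19. Cyp2c55 was under the filter, with a mean signal of 54.8.

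Cyp2s1, an epithelial P450 that is also inducible through the Ah receptor, had 743.8 and 877.2 on the conventionalized arrays and 1153.0 and 974.4 on the germ-free arrays. Its pools were apart by only a small gap, with a difference of -0.38 ± 0.42. Cyp2e1, the ethanol-oxidizing form, had 93.4 and 234.5 on the conventionalized arrays and 209.1 and 230.2 on the germ-free arrays. Those signals overlapped, and the difference of -0.46 turned to 0.084 without conventionalized array 1. Cyp2d22, just above the filter, had 103.5 and 231.0 on the conventionalized arrays and 102.0 and 30.5 on the germ-free arrays. The lower conventionalized signal barely exceeded the higher germ-free one, and the difference was 1.04 ± 1.12. Cyp2d40 overlapped, with a difference of -0.22 that ranged from -1.27 to 0.82 over the arrays left out.

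**Figure D3:**
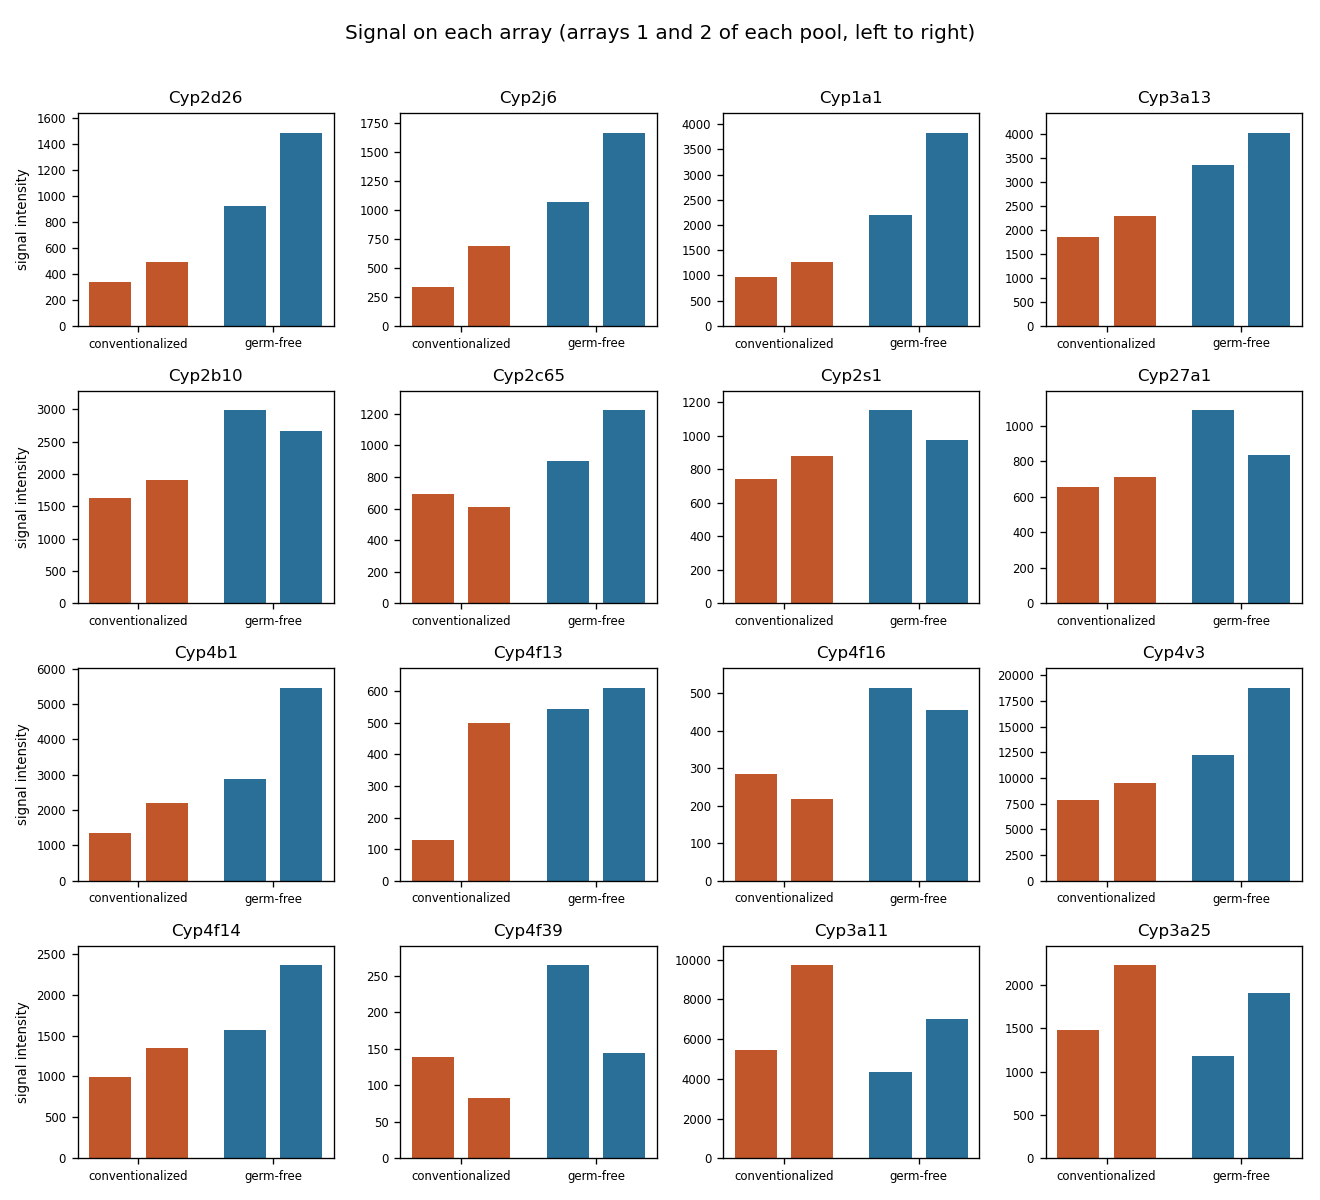
Signal intensity on each array (vertical axis from 0, scaled per gene) for the 14 P450 genes lower in the conventionalized pool without overlap, and for Cyp3a11 and Cyp3a25; orange bars are conventionalized arrays 1 and 2 and blue bars germ-free arrays 1 and 2. In the first 14 panels both orange bars are shorter than both blue bars, by a wide margin for Cyp2d26 and Cyp1a1 and a narrow one for Cyp4f13 and Cyp4f39, whereas those of Cyp3a11 and Cyp3a25 overlap.

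The Cyp3a genes, which oxidize a large share of drugs as well as steroids and bile acids, had differences on both sides of 0. Cyp3a13 had 1853.4 and 2296.8 on the conventionalized arrays, against 3343.6 and 4029.5 on the germ-free arrays. Both germ-free signals were higher than either conventionalized one, and the difference was -0.82 ± 0.43, with an unadjusted p of 0.0588. Cyp3a11, the chief Cyp3a form of mouse liver and a target of the pregnane X receptor, had 5473.1 and 9734.5 on the conventionalized arrays and 4367.5 and 7031.7 on the germ-free arrays. Its arrays overlapped, and the difference of 0.40 ± 0.51 was -0.018 without conventionalized array 2. Cyp3a25 had 1481.0 and 2232.9 on the conventionalized arrays and 1185.4 and 1914.3 on the germ-free arrays, again overlapping, with a difference of 0.27 ± 0.42.

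Within each array the log2 ratio of Cyp3a13 to Cyp3a11 was -1.55 and -2.07 on the conventionalized arrays, against -0.38 and -0.80 on the germ-free arrays. Scaling each array by 1 factor hardly alters such a ratio. It was lower on both conventionalized arrays, with a mean difference of -1.22, an unequal change of 2.32-fold, and of -1.09 with quantile normalization. The ratio to Cyp3a25 differed by -1.09, and by -1.16 with quantile normalization. In an exact permutation test, two-sided, both had p = 0.333, the smallest value that 2 arrays against 2 can give. These pairs were picked after the values had been seen.

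The promoters of Cyp3a13 and Cyp3a11 are shown because these subfamily members had differences on opposite sides of 0. In GRCm38.p6 both genes lie on chromosome 5, with windows 7.96 Mb apart, whereas those of Cyp3a25 and Cyp3a11 are 0.13 Mb apart. The windows are at chr5:137921620-137921869 and chr5:145879855-145880104, on the minus strand. Capitals mark TATAAA and AGGTCA, the half-site of many nuclear receptors, in that order in Cyp3a11, and none of the motifs searched was in the Cyp3a13 window:
Cyp3a13: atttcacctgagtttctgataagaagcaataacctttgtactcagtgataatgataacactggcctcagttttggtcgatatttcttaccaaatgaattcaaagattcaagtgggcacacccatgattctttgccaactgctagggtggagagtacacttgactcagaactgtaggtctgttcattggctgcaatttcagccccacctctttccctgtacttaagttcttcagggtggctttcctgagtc
Cyp3a11: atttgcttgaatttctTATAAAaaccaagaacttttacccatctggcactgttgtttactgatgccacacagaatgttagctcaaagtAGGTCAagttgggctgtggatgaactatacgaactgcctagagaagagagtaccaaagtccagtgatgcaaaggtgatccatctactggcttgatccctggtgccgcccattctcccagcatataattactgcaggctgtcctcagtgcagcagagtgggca
AGGTCA stood at bases -162 to -157 of Cyp3a11 and was also in the window of Cyp3a25. On either strand it was in 14% of all windows and in those of 8 of 28 P450 genes. TATAAA was in 12.4% of all windows and in those of 9 P450 genes, and AGATAA in 9.99% and in those of 5. The D-box TTANGTAA, at which Dbp and Tef bind, was in 2.06% of all windows and in that of Cyp2c38 alone. No hits of different motifs overlapped in these P450 windows. A match in letters is not a bound site.

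Nr1i2, which encodes the pregnane X receptor, had signals of 392.7 and 36.8 on the conventionalized arrays and 213.5 and 169.9 on the germ-free arrays. The conventionalized arrays lay on either side of the germ-free ones, and the difference of -0.38 was 0.93 without conventionalized array 2. Nr1i3, the constitutive androstane receptor, was under the filter with a mean of 28.5.

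Family 4, the fatty acid hydroxylases, had the same direction in most members. Of 7 kept genes 6 were lower in the conventionalized pool without overlap, beside 16.1% of all genes, and the median difference was -0.81. Cyp4f39, among the 6, passed the filter only through the germ-free pool, and the exception, Cyp4a31, only through the conventionalized pool. Cyp4b1, which hydroxylates fatty acids and activates some plant and fungal toxins, had 1361.8 and 2209.7 on the conventionalized arrays, against 2890.6 and 5469.0 on the germ-free arrays. No conventionalized signal reached a germ-free one, and the difference was -1.18 ± 0.43, 2.27-fold lower, with an adjusted p of 0.432.

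The Cyp4f enzymes inactivate leukotriene B4 and hydroxylate long fatty acids. All 4 kept Cyp4f genes were lower without overlap, beside 16.1% of all genes, Cyp4f39 having passed the filter only through the germ-free pool. Their median of -0.79 stayed between -0.97 and -0.75 whichever array was left out. Its sign could not change, since arrays that do not overlap keep their order with 1 left out. Cyp4f14, a leukotriene B4 hydroxylase, had 995.7 and 1345.4 on the conventionalized arrays, against 1566.7 and 2361.0 on the germ-free arrays, and a difference of -0.72 ± 0.42. Cyp4f16 had 284.7 and 219.6 on the conventionalized arrays, against 515.9 and 455.4 on the germ-free arrays, and a difference of -0.87 ± 0.50. The pools of Cyp4f16 were farther apart than the repeats within either pool, which was not so for Cyp4f14.

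Cyp4f13 had 127.9 and 500.5 on the conventionalized arrays, against 542.4 and 611.7 on the germ-free arrays. Its difference of -1.06 ± 0.49 (adjusted p of 0.860) was -0.19 without conventionalized array 1 and -1.93 without conventionalized array 2. Cyp4f39, whose human counterpart makes very long hydroxylated fatty acids for skin lipids, had 139.2 and 82.4 on the conventionalized arrays, against 264.4 and 144.4 on the germ-free arrays, and a difference of -0.71 ± 0.79. Here the gap between the pools was smaller than the gap between repeats. A probe set shared by Cyp4f37 and Cyp4f16 had 219.1 and 19.4 on the conventionalized arrays, against 410.3 and 593.7 on the germ-free arrays, a difference of -2.21 ± 0.61 with an adjusted p of 0.069. It was -1.07 without conventionalized array 2 and -3.36 without conventionalized array 1. Among the other shared probe sets, that of Cyp2a5 and Cyp2a4 had a difference of 0.13 with overlap. The one of Cyp3a41a and Cyp3a41b was under the filter with a mean of 80.2, and its arrays overlapped. That of Cyp4a31 and Cyp4a10, also under the filter, is given with Cyp4a31. The windows of Cyp4f13, Cyp4f14, Cyp4f15, Cyp4f16, Cyp4f37 and Cyp4f39 lie within 494.8 kb of chromosome 17, and near-identical neighbours of this kind can share probes. Cyp4f15 was under the filter, with 59.2 and 40.1 on the conventionalized arrays and 157.3 and 86.1 on the germ-free arrays.

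Cyp4v3, the mouse counterpart of a human fatty acid hydroxylase mutated in a crystalline retinal dystrophy, gave the one call. Its brighter probe set had 7829.5 and 9524.3 on the conventionalized arrays, against 12270.5 and 18824.4 on the germ-free arrays, a difference of -0.81 ± 0.60. Its second probe set had 212.5 and 290.5 on the conventionalized arrays, against 1028.1 and 1868.6 on the germ-free arrays. Both probe sets were lower without overlap, and by the second probe set Cyp4v3 fell by 2.34 ± 0.45 on the log2 scale, with a limma adjusted p of 2.44e-04. It was the only one of 40 Cyp probe sets tested that was called lower, and 0 were called higher, beside 0.213% and 0.12% of all 22491 probe sets. The call was lost without germ-free array 2, where the difference was -1.92, with median centring (-2.44), and when the variance was modelled without the trend or with a fixed weak prior.

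The seventh member of family 4, Cyp4a31, another fatty acid hydroxylase, ran the other way with a dim signal. It had 111.7 and 236.3 on the conventionalized arrays, against 47.8 and 105.0 on the germ-free arrays, and a difference of 0.91 ± 1.01.

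**Figure D4:**
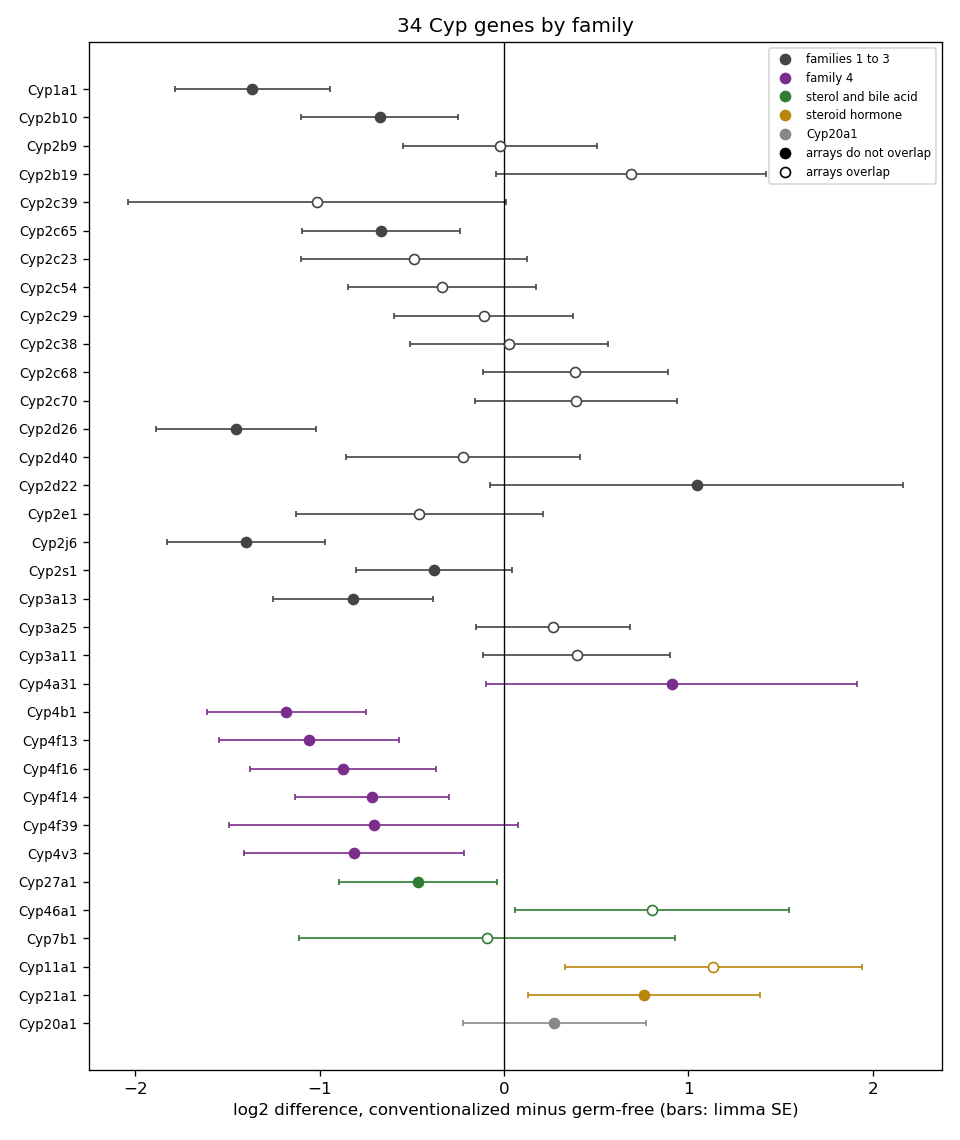
Log2 difference, conventionalized minus germ-free (horizontal axis), with its limma SE for each of the 34 P450 genes, coloured by family; filled points are genes whose conventionalized and germ-free arrays do not overlap. All 4 Cyp4f genes, Cyp4b1 and Cyp4v3 lie left of 0, the Cyp2c genes scatter around it, and the steroid hormone enzymes Cyp11a1 and Cyp21a1 lie to the right.

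The enzymes of sterol and steroid handling were few and mostly dim. Cyp27a1, the mitochondrial enzyme that hydroxylates the sterol side chain on the way to bile acids, had 656.4 and 708.6 on the conventionalized arrays, against 1088.3 and 836.7 on the germ-free arrays. It was lower without overlap, with a difference of -0.47 ± 0.43. Cyp7b1, an oxysterol hydroxylase, had 68.1 and 156.1 on the conventionalized arrays and 169.6 and 74.2 on the germ-free arrays, which overlapped. Cyp46a1, a cholesterol hydroxylase known from brain, had 245.3 and 192.7 on the conventionalized arrays and 350.8 and 21.5 on the germ-free arrays, and its difference turned to -0.62 without germ-free array 2.

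Cyp11a1, which starts steroid hormone synthesis from cholesterol, had 102.1 and 467.6 on the conventionalized arrays and 124.7 and 56.5 on the germ-free arrays. These overlapped, and the difference of 1.14 ± 0.81 shrank to 0.19 without conventionalized array 2. Cyp21a1, the steroid hydroxylase on the way to corticosterone, had 316.1 and 231.9 on the conventionalized arrays, against 200.1 and 106.3 on the germ-free arrays, higher without overlap by 0.76 ± 0.63. A second probe set for Cyp21a1 overlapped (0.45). Cyp20a1, whose substrate is not known, had 432.7 and 388.8 on the conventionalized arrays and 300.5 and 371.5 on the germ-free arrays, a difference of 0.27 ± 0.50 that did not exceed its error.

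The other 38 P450 genes had mean signals of 13.6 to 112.9 and were not tested. In 7 of them (18.4%) both conventionalized arrays lay below both germ-free arrays, and in 5 (13.2%) above, near the 14.1% and 16.6% of all genes under the limit. They included Cyp7a1, the first enzyme of bile acid synthesis, Cyp8b1, which sets bile acid composition, Cyp24a1 and Cyp27b1 of vitamin D metabolism, and Cyp26a1 and Cyp26b1, which clear retinoic acid.

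The next genes are partners of the P450 enzymes. Of 24 genes of electron transfer and haem supply, 17 passed the filter, and the median difference was -0.08, with 10 below 0. The test called 0 of the 17, beside 0.248% of all genes lower and 0.107% higher. Cyb5b, the cytochrome b5 of the outer mitochondrial membrane, had 1113.8 and 794.4 on the conventionalized arrays, against 1727.9 and 3082.6 on the germ-free arrays, a difference of -1.27 ± 0.42 with an adjusted p of 0.258. Cyb5r3, the cytochrome b5 reductase, had a difference of -0.93 at its brightest probe set, -2.10 over the mean of its probe sets and -3.26 at its brightest one once the types that can match several genes were left out, and it was called lower in those last 2 alternatives. Alas1, the first enzyme of haem synthesis, had a difference of -0.94, with 326.1 and 238.8 on the conventionalized arrays and 561.3 and 568.7 on the germ-free arrays. These 3 genes of the 17 were lower without overlap and 4 were higher, beside 16.1% and 15.9% of all genes. The higher ones were Alad (0.28), Cpox (0.43) and Ppox (0.63), later enzymes of haem synthesis, and the haem-degrading enzyme Hmox1 (0.78). Ppox and Hmox1 passed the filter only through the conventionalized arrays. With the mean of their probe sets Alad turned to -0.052 and Cpox to -0.13. Cyb5a, the microsomal cytochrome b5 that serves P450 enzymes, had 5400.0 and 6494.4 on the conventionalized arrays and 4632.9 and 8846.2 on the germ-free arrays, which overlapped.

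Of 35 nuclear receptors and other regulators of P450 genes, 25 passed the filter, with a median of -0.18 and 15 below 0. Among the 25, 8 were lower and 3 higher without overlap, beside 16.1% and 15.9% of all genes. Called were 1 lower and 0 higher, beside 0.248% and 0.107% of all genes. Dbp, a clock-controlled factor that drives several P450 genes of mouse liver, was the 1 call of the list. It had 496.6 and 659.4 on the conventionalized arrays, against 1610.3 and 2933.0 on the germ-free arrays, and fell by 1.87 ± 0.42 on the log2 scale (limma adjusted p of 0.00462), a call that was lost in 7 of the alternatives, both other normalizations among them. Tef, which binds the same motif, had 401.8 and 89.7 on the conventionalized arrays, against 865.4 and 594.0 on the germ-free arrays, a difference of -1.71 ± 0.49 with an adjusted p of 0.0927. It was -0.79 without conventionalized array 2 and -2.62 without conventionalized array 1, where it was called. Ppara (-1.49), Gata6 (-0.96), Nr3c1 (-0.49), Vdr (-0.38) and Cebpa (-0.13) were lower without overlap and not called, as was Ahr. Nr1h4, the bile acid receptor (0.40), Rxrb (0.63) and Rarb (1.24) were higher without overlap and not called. Ppara passed the filter only through the germ-free arrays and Rarb only through the conventionalized ones. With the mean of its probe sets Ppara had a difference of -0.50.

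Of 14 further genes that handle arachidonate and its products, 9 passed the filter, and the median was -0.47. Limma called 0 of the 9, beside 0.248% of all genes lower and 0.107% higher. Ptgr2 (-0.67), a prostaglandin reductase, and Lta4h (-0.36), which makes leukotriene B4, were lower without overlap. These were 2 of the 9, with 0 higher, beside 16.1% and 15.9% of all genes. With the mean of their probe sets Ptgr2 was -0.17 and Lta4h -0.49. Cyp51, the sterol demethylase left out by name, had a difference of -0.66 at its brightest probe set and 0.02 at the next.

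Markers of cell types were measured on the same arrays. Absorptive enterocytes express many P450 genes, and all 27 of their markers found on the array passed the filter. Of these, 23 were below 0, and the median was -0.52. Limma called 1 lower (Apoc3) and 0 higher, beside 0.248% and 0.107% of all genes. Without overlap 8 were lower and 2 higher, beside 16.1% and 15.9% of all genes. The summed signals of the 27 markers were 143746 and 313963 on the conventionalized arrays and 143581 and 252860 on the germ-free arrays, ranges that overlap. Bright markers weigh most in such sums. Fabp2, 1 of the 4 markers above 0, had 51528.0 and 142558.1 on the conventionalized arrays and 20981.4 and 45251.9 on the germ-free arrays. The sums therefore do not measure how much of a cell type each pool held. Paneth cell markers had summed signals of 356182 and 729623 on the conventionalized arrays, against 89334 and 180087 on the germ-free arrays. Lyz1 and Defa31 weigh heavily in these sums, with 249593.9 and 245508.7 on conventionalized array 2. Of the 16 markers tested 14 were above 0, and 13 were higher and 1 lower without overlap, beside 15.9% and 16.1% of all genes. Called were 2 higher and 0 lower, beside 0.107% and 0.248% of all genes. The median of markers of the proximal small intestine was -0.50 and that of the distal small intestine -0.41. Hepatocyte markers were dim, with 5 of 8 under the filter, Alb and Fgb among them, and summed signals of 670 and 826 on the conventionalized arrays and 1040 and 739 on the germ-free arrays. The part of these cell types in the P450 differences was not tested.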

How the data were processed

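Laser-captured Paneth cells of 2 pools, conventionalized and germ-free, were measured on 4 arrays. The authors deposited linear signal intensity values, 1 for each probe set on each array. How these were computed is not given in the sources used here. Their deposited values had a trimmed mean of 250 on every array, so they were used without further scaling. Gene names came from the platform annotation, 34958 of 45101 probe sets having 1 gene, 932 several and 9211 none. Only 1-gene probe sets stood for a gene.

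Signals were turned into log2(signal + 32), which understates changes of dim genes. The 22491 probe sets with a mean above 113.9 were fitted with limma 3.58.1 in R 4.3.3 (lmFit, eBayes with a variance trend), controls left out. Benjamini-Hochberg adjustment ran over all of them, and a call needs an adjusted p under 0.05. The estimated prior degrees of freedom were infinite, so each SE is shared by probe sets of similar brightness. No block was used. Same-numbered arrays correlated at -0.132 in their deviations, and the labels give no pairing.

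Members given on every array were those called, those without overlap and the brightest of each subfamily, with Cyp3a25 and the dim Cyp1a2, Cyp1b1 and Cyp4f15 added after their values were seen. Of the partner genes, those called or without overlap and a few receptors were named. The P450 genes, lists and comparisons were chosen with earlier results of these data known. Promoter sequences are from RefSeq (GRCm38.p6), matched by gene identifier for 28 of 34 genes. Alternatives covered pseudocount, filter, normalization, variance model, replicate block, probe set rule and each array left out. Scanner parameter files were read for the fluidics station only. Ratios were tested with scipy 1.17.1. The number of arrays limits the precision.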

Additional observations from a re-analysis of the deposited data

How the results depend on the processing

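Leaving out each array in turn, both normalizations, other pseudocounts, filters, variance models, probe set rules and blocks gave 16 alternatives. The 14 P450 genes lower without overlap kept their sign, which for most alternatives follows from their construction, since arrays that do not overlap cannot change order with 1 left out and the filters, variance models and blocks leave the difference as it is. Of the other 20 genes, 11 changed sign under at least 1. No P450 gene was called higher under any. The count called lower was 0 except for 1 in the brightest 25% of probe sets (Cyp2d26), 2 with the mean of all probe sets (Cyp2j6, Cyp4v3) and 1 without the probe set types that can match several genes (Cyp4v3), and it was 0 with each single array left out. The replicate numbers do not pair the arrays by label, and with the number as a replicate block 0 genes were called lower or higher and the median was -0.36. The deviations of same-numbered arrays were only weakly correlated, at -0.132. A crossed replicate block, added after seeing the data, called 3 (Cyp1a1, Cyp2d26, Cyp2j6) lower. Over all probe sets limma called 75, 30 with the replicate block, 228 with the crossed block, 34 with quantile normalization, 22 with median centring, 213 without conventionalized array 1, and 0 with no variance trend or a fixed prior of 4 degrees of freedom, with which Cyp1a1, Cyp2d26 and Cyp2j6, and with the fixed prior also Cyp4b1, had an unadjusted p under 0.05. The median of the P450 genes was -0.11 over all 72 genes with no filter, -0.50 to -0.11 with single arrays left out, and -0.42, with 0 called, over the 28 genes with both pool means above the limit, an alternative added after seeing the data.

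With single arrays left out, differences that crossed 0 ran from -0.32 to 0.28 for Cyp2b9, -1.07 to 0.094 for Cyp2c23, -0.44 to 0.22 for Cyp2c29, -0.84 to 0.89 for Cyp2c38, -0.049 to 0.83 for Cyp2c70, -1.27 to 0.82 for Cyp2d40, -1.004 to 0.084 for Cyp2e1, -0.018 to 0.81 for Cyp3a11, -0.072 to 0.60 for Cyp3a25, -0.62 to 2.22 for Cyp46a1, -0.55 to 0.37 for Cyp7b1, -0.58 to 0.35 for Cyb5a and -1.69 to 0.93 for Nr1i2. Median centring turned Cyp2c38 to -0.079. The mean of all probe sets turned Alad to -0.052, Cpox to -0.13 and Nr1i2 to 0.20. The cause was not tested. Subfamily medians ranged from -1.20 to 0.57 for Cyp2d and from -0.072 to 0.60 for Cyp3a. With 1 pool a group and 2 amplifications of each, the spread between mice is not measured, and dim probe sets carry the widest errors.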
